A study of Mus musculus with 38 samples.

Results

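The sites described here are c-Fos binding sites of depolarised mouse cortical neurons that were still listed as bound when c-Fos had been targeted by a short hairpin RNA (shRNA). The authors' combined list holds 12594 c-Fos positions in genome build mm9. A position was selected by the c-Fos peak lists under c-Fos shRNA, that is, when it lay inside a peak of at least 1 of the 2 lists, from biological samples 5 and 6. Of the 12594 positions, 661 (5.25%) met this rule and are called kept sites below. The kept sites are compared with the other 11933 positions. The selection is a readout of the knockdown, so the values of the c-Fos shRNA lists are given as a description and were not tested.

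All lists come from chromatin immunoprecipitation and sequencing (ChIP-seq) of cortical neurons of C57BL/6 mouse embryos of day 16.5, used after 7 days in vitro. On day 6 every culture was silenced until the next morning, with TTX (1 µM) to block sodium channels and DL-AP5 (100 µM) to block NMDA receptors. The cultures then depolarised with KCl for 2 h had been infected with c-Fos shRNA (sc52 antibody, biological samples 5 and 6), FosB shRNA (FosB antibody sc48, samples 5 and 6), control shRNA (sc52 and sc48, samples 5 and 6) or carried no shRNA (sc52, sc7202 and sc48 in samples 3 and 4, JunB antibody sc46 in sample 4). Unstimulated cultures without shRNA were mapped with the same antibodies in the same samples 3 and 4. The histone mark H3K27ac was mapped in merged samples 1 and 2, with KCl and unstimulated, so that its lists have no replicates. The 22 AP-1 lists held 557 to 28885 peaks. The files hold peaks and no reads, so depth is unknown, and a site outside a list is a site with no listed peak, not a site shown to be free of the protein. Peak lists hold no expression, so the labelled cell type was not checked against marker genes. The level of c-Fos protein left under the shRNA was not measured in these lists.

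c-Fos and FosB are Fos proteins, which bind DNA as a pair with a Jun protein such as JunB, and these pairs make up the transcription factor AP-1. Fos and FosB are immediate early genes whose transcripts and proteins rise within minutes to hours of neuronal activity. In neurons AP-1 binds mostly at distal enhancers, and acetylation of histone H3 at lysine 27 marks enhancers and promoters that are active. An shRNA is processed to a small interfering RNA that leads to breakdown of the matching transcript, and it usually lowers a protein without removing it.

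The c-Fos shRNA libraries of the 2 cultures differed widely. The list of biological sample 5 held 7808 peaks and 641 of the combined sites (5.09% of the 12594), and the list of sample 6 held 1793 peaks and 55 sites (0.437%). Of the kept sites, 35 lay in both lists, 606 in the list of sample 5 alone and 20 in that of sample 6 alone. The kept sites are therefore mainly those of 1 library, and values without it are given where they differ. With both lists reduced to their 1793 best-scoring peaks, 72 sites would have been kept, 23 of them from sample 5 and 6 of them in both lists.

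Most c-Fos shRNA peaks held no combined site. In sample 5, 641 of 7808 peaks (8.21%) held one, and in sample 6 it was 55 of 1793 (3.07%). For scale, the control shRNA c-Fos lists held 23578 peaks in sample 5 and 19131 in sample 6. Inside those peaks lay 11714 and 10563 combined sites. Many control peaks thus held none, but combined sites were far more frequent for the number of peaks than in the c-Fos shRNA lists. The authors' peak score is read here as 10 times the negative log10 of the p-value that MACS, the peak caller, assigned. Groups of sites are compared by score percentiles within a list, with 100 for the best peak. Peaks at kept sites were among the weaker peaks of the c-Fos shRNA lists, with a median percentile of 31.6 in sample 5 and 17.3 in sample 6, against 51.9 and 51.4 for the peaks that held no combined site. In the control shRNA c-Fos list of the same culture the same sites stood at a median percentile of 93.8 in sample 5 and 97.7 in sample 6. Peaks at kept sites had a median width of 816 bp under c-Fos shRNA and 1055 bp under control shRNA in sample 5, and 778 and 1051 bp in sample 6. Of the peaks at kept sites, 16.1% in sample 5 and 9.09% in sample 6 overlapped a non-distal KCl H3K27ac peak, against 69.7% and 79.1% of the c-Fos shRNA peaks with no combined site. An unstimulated sc52 peak overlapped 8.58% of the peaks at kept sites in sample 5 and 25.5% in sample 6, against 37.6% and 88.3% of the c-Fos shRNA peaks with no combined site. All of these values use the lists of the selection and are descriptions. They also depend on the unknown rule of the combined list, which may have left out peaks present in other lists.

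The selection rests on a peak threshold, and many kept sites lie close to it. The lowest score in the lists, 50, stands for a p-value of 1e-05. The weakest kept sites scored 50.04 at position 87361945 of chromosome 17 in sample 5 and 50.37 at position 17562077 of chromosome 10 in sample 6. For 238 of the 661 kept sites the best c-Fos shRNA score was under 60. Just outside the rule, 14 of the other combined sites lay within 100 bp of the edge of a c-Fos shRNA peak, and the nearest, at position 135833936 of chromosome 7, lay 4 bp from it.

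The kept sites ranked among the strongest c-Fos sites in the lists of the other c-Fos antibody, from cultures without shRNA. With sc7202 after KCl, 657 of the 661 kept sites lay in a peak in sample 3 (99.4%, Wilson 95% interval 98.5 to 99.8%) and 632 in sample 4 (95.6%, 93.8 to 96.9%). The other combined sites lay in a peak in 87.0% and 66.1% of cases, and all 12594 together in 87.6% and 67.6%. The difference was 12.4 points in sample 3 and 29.5 points in sample 4, with no test at 2 samples. The peaks themselves ranked higher: their median percentile was 96.3 at kept sites and 71.7 at the others in sample 3, and 93.8 and 62.9 in sample 4. With sc52 itself, which the combined list may have used, KCl peaks held 98.9% of kept sites in sample 3 and 78.97% in sample 4, against 79.05% and 27.3% of the others (80.1% and 30% of all). With control shRNA, sc52 peaks held 100% in sample 5 and 95.3% in sample 6, against 92.6% and 83.2% of the others (93% and 83.9% of all). Wilson intervals in this text cover counting error alone, since sites are not replicate cultures.

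With each combined site placed by its mean sc7202 percentile over samples 3 and 4 (0 where it had no peak), the share of sites kept was highest in the top decile. In that decile 422 of 1259 sites were kept (33.5%, 31.0 to 36.2%), and in the next decile 105 of 1259 (8.34%, 6.94 to 9.997%). In each of the 3 weakest deciles it was 5 sites or fewer, from 0.159% to 0.397%. The top decile held 413 of the 641 sites of sample 5 and 37 of the 55 sites of sample 6, so both c-Fos shRNA lists drew most of their sites from it. In the top decile 32.8% of sites were kept in sample 5 and 2.94% in sample 6. The median kept site stood at a mean percentile of 94.2 (quartiles 85.9 and 98.0) and the median of the others at 47.0 (25.5 and 74.5).

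**Figure D1:**
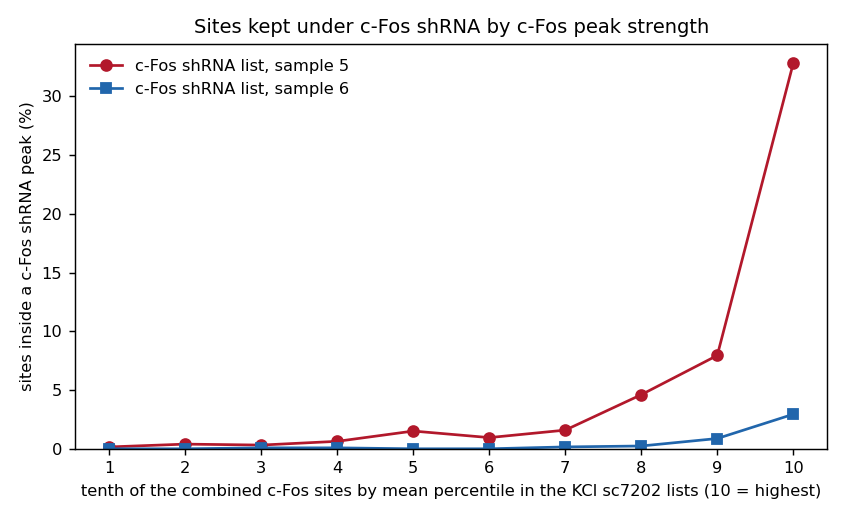
Share of combined c-Fos sites inside a c-Fos shRNA peak (y axis, percent) by decile of the sites ordered by mean percentile in the KCl sc7202 lists (x axis), for biological sample 5 (red circles) and 6 (blue squares). In the top decile the share is 32.8% in sample 5 and 2.94% in sample 6, and in the weakest it is 0.159% and 0.

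JunB, a frequent partner of the Fos proteins, covered nearly every kept site after KCl. In the single JunB list, from sample 4, 628 of the 661 kept sites lay in a peak (95.01%, 93.1 to 96.4%), against 65.1% of the other combined sites and 66.7% of all. The difference of 29.9 points has no replicate check. The median percentile of the JunB peaks was 94.4 at kept sites and 64.4 at the others.

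FosB, the relative of c-Fos that the selection did not involve, occupied kept sites more often than the others in each of the 4 KCl lists without FosB shRNA. It covered 462 kept sites in sample 3 (69.9%), 368 in sample 4 (55.7%), 652 in sample 5 with control shRNA (98.6%) and 537 in sample 6 with control shRNA (81.2%). Among the other combined sites the shares were 22.4%, 13.6%, 72.8% and 45.8%, and over all 12594 sites 24.9%, 15.8%, 74.1% and 47.7%. The 4 values of the kept sites and of the others overlap between lists, which held 4899 to 22933 peaks, but within each of the 4 lists the kept sites were higher. The difference was 37.7 points ± 9.32 (SD, n = 4 biological samples, range 25.9 to 47.5). The exact two-sided sign-flip permutation test gave p = 0.13, the smallest value that 4 samples allow. Compared within quartiles of the sc7202 percentile, and weighted as the kept sites are, the difference was 14.6 points ± 8.31 (SD, n = 4, higher in 4 of 4, exact permutation p = 0.13). A quartile does not hold c-Fos strength fixed, since 33.5% of sites were kept in the top decile and 8.34% in the next. This limit holds for every comparison within sc7202 quartiles in this text. In the top quartile, with 569 kept sites, it was 22.7, 24.9, 2.92 and 11.3 points in samples 3, 4, 5 and 6. In the weakest quartile, with 8 kept sites, the difference was -4.04, -2.74, 26.7 and -11.98 points in the same samples, so kept sites were higher in sample 5 alone. Where a FosB peak was present, it also ranked higher in its list at kept sites, by 28.9 percentile points ± 3.30 in the median (SD, n = 4, higher in 4 of 4, exact sign-flip permutation p = 0.13). These medians were 90.7, 87.5, 95.9 and 92.001 at kept sites and 57.7, 61.2, 65.7 and 65.8 at the others, in samples 3, 4, 5 and 6.

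**Figure D2:**
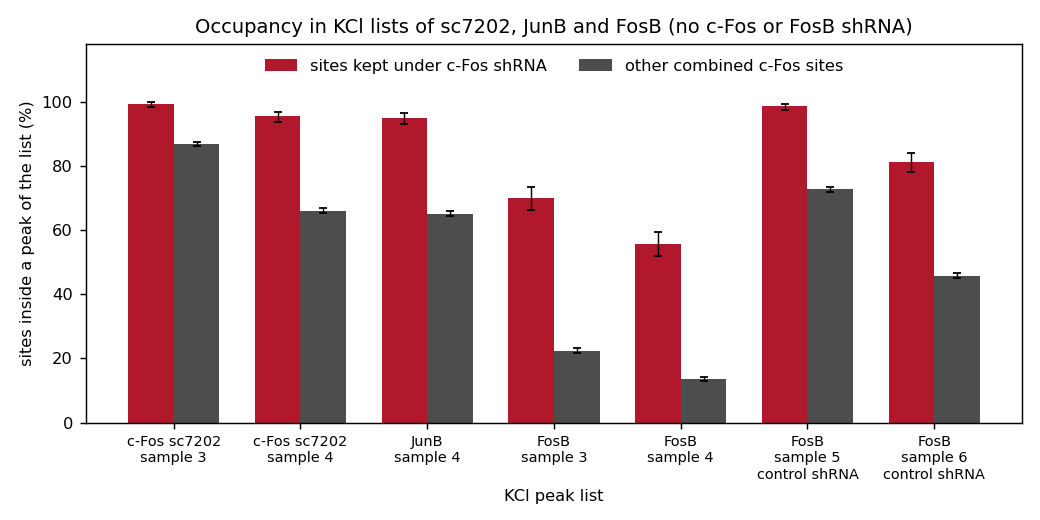
Share of kept sites (red, left bar of each pair) and of the other combined c-Fos sites (grey) inside a peak (y axis, percent) in the 7 KCl lists of sc7202, JunB and FosB from cultures without c-Fos or FosB shRNA (x axis), with Wilson 95% intervals. The red bar is the higher one in each of these 7 pairs, which differ by 12.4 to 47.5 points.

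Over the 7 KCl lists of sc7202, JunB and FosB without FosB shRNA, 311 kept sites (47.0%) lay in all 7, against 728 of the other sites (6.10%) and 8.25% of all combined sites. The mean difference over the lists of a biological sample was 31.3 points ± 4.27 (SD, n = 4 samples, higher in 4 of 4, exact sign-flip permutation p = 0.13). Taken over the 7 libraries, which share 4 cultures, it was 31.8 points and the exact sign-flip permutation test gave p = 0.0156, the smallest value that 7 libraries allow. Libraries of 1 culture are not independent, and the sc7202 lists are c-Fos lists at sites chosen by c-Fos peaks. This p-value is therefore a description, and the value over 4 samples is the one to read. Of the kept sites 311 lay in all 4 FosB lists, as did 753 of the others (6.31%), out of 8.45% of all combined sites. Only 7 kept sites (1.06%) lay in none of the 4 FosB lists, against 2206 of the others (18.5%) and 17.6% of all. Read the other way, 29.2% of the 1064 combined sites in all 4 FosB lists were kept and 0.316% of the 2213 sites in none. Within the strongest sc7202 quartile these shares were 32.8% of 929 sites and 5.41% of 37 sites.

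The kept sites were more often acetylated than the other c-Fos sites. In the KCl H3K27ac list 385 kept sites (58.2%, 54.4 to 61.9%) lay in a peak, against 23.1% of the others (22.3 to 23.8%) and 24.9% of all. In the unstimulated list it was 288 kept sites (43.6%), against 16.2% of the others and 17.6% of all. Most of these sites lay in chromatin acetylated in both conditions: 271 kept sites (41.0%) had a peak with KCl and unstimulated, against 14.1% of the others (15.5% of all). A peak with KCl alone was present at 114 kept sites (17.2%), against 9.02% of the others (9.45% of all), and a peak in unstimulated neurons alone at 17 (2.57%), against 2.10% of the others (2.13% of all). No H3K27ac peak was listed at 259 kept sites (39.2%) and at 74.8% of the others (73% of all). The difference in the KCl share was 35.2 points (Newcombe 95% interval 31.3 to 38.95), 1 merged list with no replicate check. It was 25.04 points within quartiles of the sc7202 percentile, 22.5 points for the 55 sites of sample 6 and 20.9 points for the 35 sites of both lists. Within a quartile c-Fos strength still varied.

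**Figure D3:**
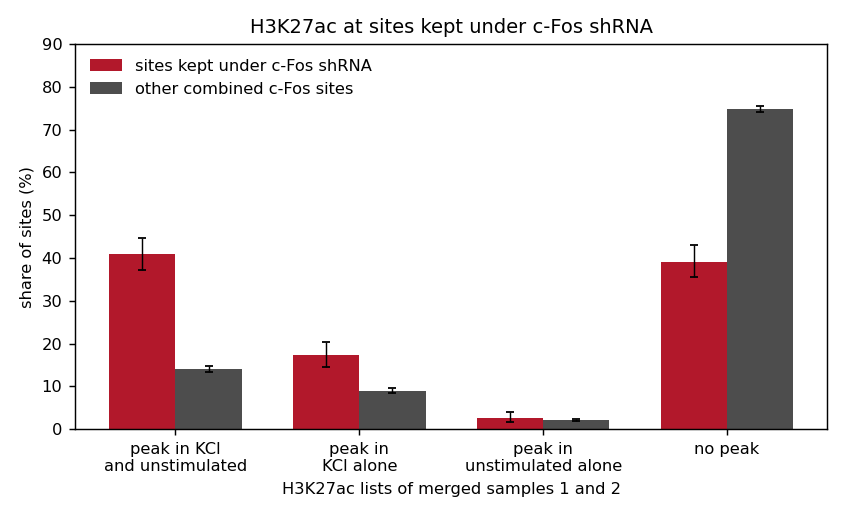
Share of kept sites (red, left) and of the other combined c-Fos sites (grey) by H3K27ac (y axis, percent; x axis, peaks in the KCl and unstimulated lists of merged samples 1 and 2), with Wilson 95% intervals. Kept sites reach 41.0% with a peak in both conditions and 39.2% with no peak, and the other sites 14.1% and 74.8%.

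Both distal and non-distal acetylated chromatin held kept sites. The authors deposited a list of distal H3K27ac peaks, and the peaks outside it are called non-distal. After KCl 283 kept sites lay in distal peaks (42.8%), against 19.0% of the others (20.3% of all), and 102 in non-distal peaks (15.4%), against 4.05% of the others (4.65% of all). Among all combined sites in non-distal KCl peaks 17.4% were kept (102 of 585, 14.6 to 20.7%), in distal peaks 11.1% (283 of 2553) and outside H3K27ac of both conditions 2.82% (259 of 9188). In the strongest sc7202 quartile these shares were 46.1% of 152 sites, 24.1% of 1081 sites and 12.3% of 1849 sites, in the same order. The acetylated peaks that held kept sites were wide and ranked high within their list. For KCl the median width was 3021 bp and the median percentile 64.01 at kept sites, against 2591 bp and 48.3 at the other combined sites in a peak.

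Kept sites were frequent at distal enhancers marked by the histone acetyltransferase CBP and by H3K4me1, a set that the deposited list credits to Kim et al. An enhancer of this set lay within 500 bp of 303 kept sites (45.8%, 42.1 to 49.7%), against 22.8% of the others and 24% of all. In the class whose H3K27ac increases after KCl there were 92 kept sites (13.9%, 11.5 to 16.8%), against 4.29% of the others and 4.8% of all. The classes with constant and decreasing H3K27ac had 14 kept sites (2.12%) and 9 (1.36%), against 0.972% and 0.612% of the others and 1.03% and 0.651% of all. In the class with no H3K27ac there were 29 (4.39%), against 4.48% of the others and 4.48% of all, which is the background share. Of the 621 increasing enhancers with a combined site, 93 held a kept one (15.0%, 12.4 to 17.997%). It was 14 of 137 constant (10.2%, 6.19 to 16.4%), 9 of 82 decreasing (10.98%, 5.88 to 19.6%) and 29 of 568 with no H3K27ac (5.11%, 3.58 to 7.24%). The intervals of the first 3 classes overlap, and that of the class with no H3K27ac lies below that of the increasing class. The increasing class held 7.27% of the 55 sites of sample 6, and 8.33% of the 72 sites when both lists were reduced to the same length.

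The kept sites differed among themselves with the chromatin around them. Of the 3 larger classes, FosB was least frequent at the 102 kept sites in non-distal KCl H3K27ac peaks, where it covered 52.9%, 22.5%, 98.04% and 46.1% in samples 3, 4, 5 and 6. At the 283 sites in distal KCl peaks it covered 71.4%, 59.4%, 98.6% and 84.8%, and at the 259 sites with no H3K27ac 76.4%, 64.9%, 98.8% and 90.7%. The fourth class, 17 kept sites with an H3K27ac peak in unstimulated neurons alone, had shares of 47.1%, 52.9%, 100% and 88.2%, the first of them below the non-distal share. The order non-distal, distal, unacetylated was the same in 4 of 4 lists, although in sample 5 the 3 shares lie within 1 point of each other. All 4 FosB lists held 18 of the non-distal kept sites (17.6%), 140 of the distal (49.5%) and 147 of the unacetylated (56.8%). JunB covered 80.4%, 97.2% and 98.1% in the same order. The median sc7202 percentile was 87.1 at non-distal kept sites, 95.2 at distal and 95.3 at unacetylated ones. In the c-Fos shRNA list of sample 5 the order was the opposite, with median percentiles of 39.6, 32.3 and 25.1. The list of sample 6 held 5 of the non-distal, 21 of the distal and 29 of the unacetylated kept sites. FosB, JunB and sc7202 values of the other combined sites were not split by these classes. Whether the order in FosB, JunB or sc7202 is particular to kept sites was therefore not tested.

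**Figure D4:**
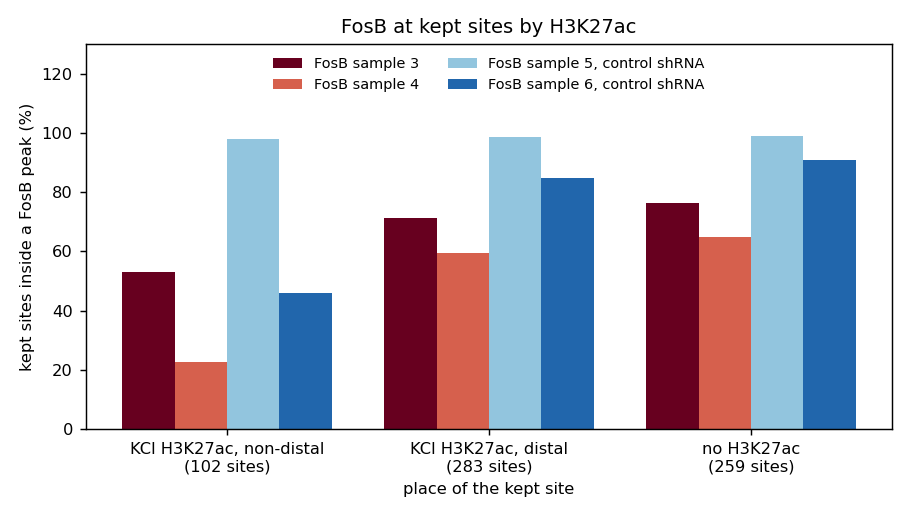
Share of kept sites inside a KCl FosB peak (y axis, percent) in each of 4 libraries (bars, coloured by biological sample) for kept sites in non-distal KCl H3K27ac peaks, in distal KCl peaks and outside H3K27ac (x axis). Of these 3 classes the non-distal sites are the lowest in each library, from 22.5% to 98.04%.

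Few kept sites had a listed AP-1 peak in silenced neurons, though more than the other combined sites. The rule behind the combined list is unknown, and whether it left out sites with unstimulated peaks, which would lower these shares, was not tested. With sc52 an unstimulated peak held 40 kept sites in sample 3 (6.05%) and 20 in sample 4 (3.03%), against 0.629% and 0.210% of the others (0.913% and 0.357% of all). With sc7202 it was 11 sites in sample 3 (1.66%) and 0 of 661 in sample 4, which allows a share of up to 0.454%, against 0.126% and 0.00838% of the others (0.206% and 0.00794% of all). FosB held 6 kept sites in sample 3 (0.908%) and 31 in sample 4 (4.69%), against 0.210% and 0.830% of the others (0.246% and 1.03% of all). JunB held 56 in sample 4 (8.47%), against 1.52% of the others (1.88% of all). Counted over both antibodies and both samples, unstimulated c-Fos peaks held 57 kept sites (8.62%, 6.72 to 11.01%), against 0.804% of the others (1.21% of all). At least 1 of the 7 unstimulated AP-1 lists held 81 (12.3%), against 2.43% of the others (2.95% of all).

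The share of kept sites with a listed AP-1 peak was far higher with KCl than unstimulated, in each culture. FosB covered 62.8% ± 10.06 of them with KCl and 2.80% ± 2.67 unstimulated (SD, n = 2 each), a difference of 59.98 points. The exact two-sided permutation test of the library labels gave p = 0.33, the smallest value for 2 against 2, and the difference was 68.99 points in sample 3 and 50.98 in sample 4. At the other combined sites FosB covered 17.98% ± 6.24 with KCl and 0.520% ± 0.438 unstimulated (SD, n = 2 each). With sc7202, c-Fos covered 97.5% ± 2.67 of the kept sites with KCl and 0.832% ± 1.18 unstimulated (SD, n = 2 each), a difference of 96.7 points. The kept sites were chosen among c-Fos sites by c-Fos peaks of KCl cultures, so this c-Fos difference is a description with no test, and FosB was measured at sites chosen in the same way. With the 4 sc7202 lists reduced to the length of the shortest, the difference was 32.9 points. The shortest list is the unstimulated one of sample 4, with 557 peaks.

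With FosB shRNA the share of kept sites with a FosB peak was lower than with control shRNA in both cultures, and still above that of the other sites. FosB covered 453 kept sites with FosB shRNA in sample 5 (68.5%) and 652 with control shRNA (98.6%), and 327 (49.5%) and 537 (81.2%) in sample 6. The mean was 59.0% ± 13.5 with FosB shRNA and 89.9% ± 12.3 with control shRNA (SD, n = 2 each), a difference of -30.9 points that was -30.1 in sample 5 and -31.8 in sample 6. The exact two-sided permutation test gave p = 0.33, the smallest possible for 2 against 2. At the other combined sites the same difference was -42.8 points, with -54.8 in sample 5 and -30.9 in sample 6. For the 35 sites of both c-Fos shRNA lists the difference was -11.4 points (exact permutation p = 0.67). Over all 12594 combined sites the FosB shRNA lists covered 20.7% in sample 5 and 16.7% in sample 6, and they covered 18.02% and 14.9% of the others. Of the sites with a control FosB peak, 69.5% of kept sites (453 of 652) and 23.4% of the others still had one under FosB shRNA in sample 5. In sample 6 it was 59.6% of kept sites (320 of 537) and 28.1% of the others. Within the strongest sc7202 quartile, where c-Fos strength still varied, these shares were 75.3% of kept sites and 42.5% of the others in sample 5. In sample 6 they were 62.7% and 38.4%. Both FosB shRNA lists held 298 kept sites (45.1%), against 8.19% of the others (10.1% of all), and at least 1 held 482 (72.9%), against 24.7% of the others (27.2% of all). With 2 cultures, the difference between kept and other sites in these shares was not tested.

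**Figure D5:**
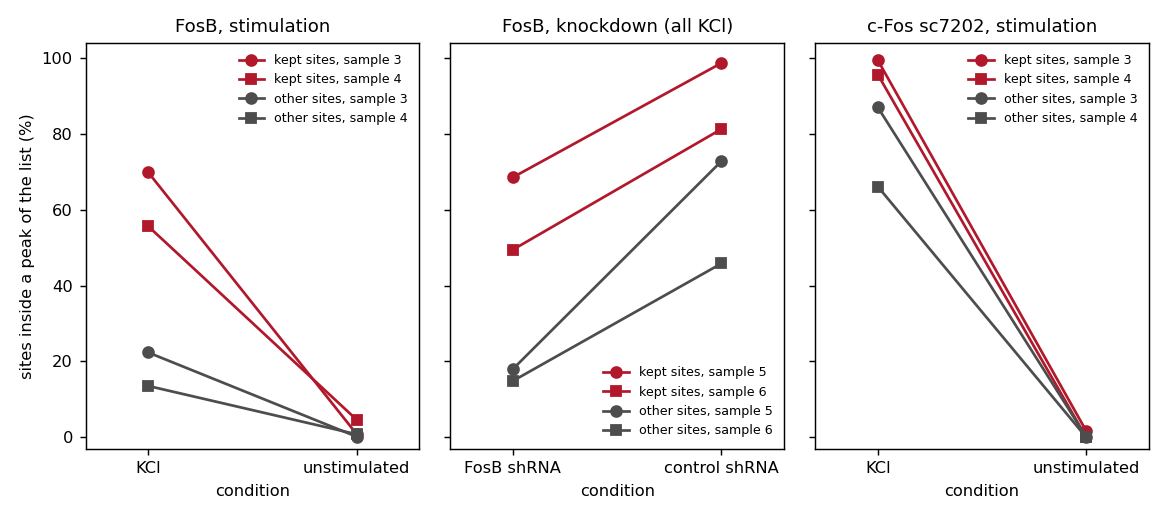
Share of kept sites (red) and other combined c-Fos sites (grey) inside a peak (y axis, percent) for FosB with KCl and unstimulated, FosB with FosB shRNA and control shRNA, and c-Fos sc7202 with KCl and unstimulated (x axes), with 1 line per biological sample. Kept sites stand at 68.5% and 49.5% under FosB shRNA, above the other sites at 18.02% and 14.9%.

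The 35 sites that both c-Fos shRNA lists held ranked highest with sc7202 among the kept sites. They had a median sc7202 percentile of 98.6, against 94.1 for the 606 sites of sample 5 alone and 89.3 for the 20 sites of sample 6 alone. FosB covered 88.6%, 77.1%, 100% and 91.4% of the 35 sites in samples 3, 4, 5 and 6. At least 1 unstimulated c-Fos list held 11 of the 35 (31.4%, 18.6 to 48.0%), against 44 of the 606 (7.26%, 5.45 to 9.61%) and 2 of the 20 (10%, 2.79 to 30.1%). The unstimulated JunB list held 34.3% of the 35 and 7.10% of the 606 sites. Of the same group, 19 of the 35 (54.3%, 38.2 to 69.5%) lay outside H3K27ac, against 230 of the 606 (38.0%, 34.2 to 41.9%), and these intervals overlap. A KCl H3K27ac peak held 16 of the 35 sites (45.7%), 359 of the 606 (59.2%) and 10 of the 20 (50%). Both FosB shRNA lists held 26 of the 35 sites (74.3%), 266 of the 606 (43.9%) and 6 of the 20 (30%).

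Kept sites were spread over the genome. Every chromosome of the list held at least 1, and on autosomes the share of combined sites kept went from 3.22% on chromosome 18 (16 of 497, 1.99 to 5.17%) to 7.52% on chromosome 17 (31 of 412, 5.35 to 10.5%). Chromosome X held 1 kept site among 140 (0.714%, 0.126 to 3.93%), and its interval overlaps that of chromosome 18. The nearest other combined site lay at a median of 39744 bp from a kept site and 45263 bp from the others. It lay within 5000 bp of 83 kept sites (12.6%), against 9.54% of the others (9.7% of all). Of the 661 kept sites, 8 had another kept site within 5000 bp, and the closest pair was 1376 bp apart. Kept sites are 5.25% of the combined sites, so few close pairs are possible among them. Whether kept sites cluster was not tested.

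Among the sites of both c-Fos shRNA lists, the 6 strongest with sc7202 are described first. They are the top of that ranking and not typical kept sites. The median c-Fos shRNA score of peaks at kept sites was 66.88 in sample 5 and 62.21 in sample 6. None of the 6 lay in a non-distal KCl H3K27ac peak, as 5 of the 35 did. Positions are given as the authors' files hold them in mm9, peak starts are counted from 1, and no gene was assigned. Raw scores of named sites are printed as they stand. Depth is unknown, so a lower score in another list does not measure how much binding was lost. The score 3100 recurs at several sites and in several lists. The site at position 66311213 of chromosome 17 had the highest scores. Under c-Fos shRNA its peak reached from 66310617 to 66311908 with a score of 1598.23 in sample 5 and from 66310512 to 66311783 with a score of 346.57 in sample 6, against scores of 3100 in both control shRNA lists. Its percentile was 97.9 and 79.03 under c-Fos shRNA, and 99.96 and 99.98 under control shRNA. FosB was listed there in all 4 KCl lists and in both FosB shRNA lists, JunB with KCl, and neither unstimulated AP-1 nor H3K27ac was listed.

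The site at position 58755968 of chromosome 13 was similar, with c-Fos shRNA scores of 593.41 and 164.84 in samples 5 and 6, and 3100 in both control shRNA lists. It too lay in all 4 KCl FosB lists, outside H3K27ac and outside every unstimulated AP-1 list. The site at position 107389461 of chromosome 1 differed in being occupied before stimulation. Its unstimulated peaks were listed with sc52 (scores 514.65 and 181.25 in samples 3 and 4), FosB (80.69 and 167.07) and JunB (706.05, sample 4), 5 of the 7 unstimulated lists. Its c-Fos shRNA scores were 412.01 and 104.95, against 1313.24 and 1260.54 with control shRNA, and no H3K27ac peak was listed.

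The other sites of this group lay in acetylated chromatin. At position 50999558 of chromosome 3, an increasing enhancer, an H3K27ac peak reached from 50998389 to 51002606 with KCl and none was listed unstimulated. Its c-Fos shRNA scores were 322.02 and 76.65 in samples 5 and 6, against 1427.94 and 1175.96 with control shRNA. At position 4993094 of chromosome 19 both H3K27ac lists held a peak, distal in the KCl list, and the c-Fos shRNA scores were 203.6 and 52.71, against 750.72 and 517.26 with control shRNA. At position 20887850 of chromosome 11 the H3K27ac peak with KCl had a percentile of 99.998, and 94.3 unstimulated. FosB was listed there in samples 5 and 6 with control shRNA and in neither of samples 3 and 4, so this strong site was not among those of all 4 FosB lists. Its c-Fos shRNA scores were 144.86 and 55.77, against 664.13 and 608.97 with control shRNA.

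Besides the site on chromosome 3, 3 other sites of both c-Fos shRNA lists lay at increasing enhancers, at position 29176109 of chromosome 2 and at positions 16843114 and 32264136 of chromosome 12. All 3 were covered by the 4 KCl FosB lists and by both FosB shRNA lists. Their c-Fos shRNA scores were 94.9 and 66.26 on chromosome 2, 106.79 and 62.8 at the first position on chromosome 12 and 115 and 88.66 at the second. The control shRNA scores at the same positions were 229.88 and 480, 364.7 and 274.06, and 445.96 and 641.62. An H3K27ac peak was listed with KCl at each of them, and unstimulated on chromosome 2 alone, where the unstimulated JunB list also held a peak (score 58.52).

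Of the sites that the list of sample 5 alone held, the 4 strongest with sc7202 were found on chromosome 13 (position 45719410), chromosome 15 (95107193), chromosome 6 (70822381) and chromosome 8 (39820476). Their c-Fos shRNA scores in sample 5 were 513.37, 552.86, 327.62 and 113.53, against 3100, 2633.13, 1900.23 and 1702.16 with control shRNA. In sample 6 they had no c-Fos shRNA peak, and control shRNA scores of 3075.5, 3100, 1836.75 and 1141.77. Every KCl FosB list without FosB shRNA covered these 4 sites, no unstimulated AP-1 list did, and the one on chromosome 6 lay at an increasing enhancer. Of the sites of sample 6 alone, the strongest were at position 74952732 of chromosome 2 and 112009478 of chromosome 10, with c-Fos shRNA scores of 53.12 and 59.66 in sample 6, against 315.75 and 481.27 with control shRNA. The first lay in all 4 KCl FosB lists and outside H3K27ac. The second lay in 1 FosB list and in an H3K27ac peak of both conditions, distal in the KCl list.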

How the data were processed

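Peak lists of c-Fos, FosB, JunB and H3K27ac ChIP-seq were taken in the form in which the authors deposited them. The submitters' processing notes name BWA and mm9. Peak names in the deposited files begin with MACS, but the sources used here name neither the caller's version nor its control. The score of each peak is the authors' own. Groups of sites were compared by percentiles within a list, and raw scores were used for thresholds and printed for named sites. The sources used here do not say how the combined c-Fos positions or the enhancer classes were derived. Each AP-1 list comes from 1 library, and the H3K27ac lists merge biological samples 1 and 2, per the labels.

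A position was inside a peak when it lay from its start (counted from 1) to its end. Kept sites and comparisons were chosen with earlier results of these data known. Shares were compared over biological samples by exact two-sided sign-flip or label permutation tests, and Wilson and Newcombe 95% intervals cover counting error. Same-numbered libraries were paired because the labels number them as 1 biological sample. The sites named are the 6 of both c-Fos shRNA lists, the 4 of sample 5 alone and the 2 of sample 6 alone with the best mean sc7202 percentile, and the increasing enhancers in both lists. Input DNA, genes, motifs and DNA sequences were not analysed here. The share and test code was tested on simulated data. Python 3.11.15, numpy 2.4.6, scipy 1.17.1 and matplotlib 3.10.9 were used.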

Additional observations from a re-analysis of the deposited data

How the results depend on the processing

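Each of the 70 alternatives kept the direction of its result, but several values moved by over 1.5 times. Some of them could not change direction. The share at increasing enhancers has no reference subtracted, and the replicate block keeps the same mean. Joining sites within 500 bp changed nothing, since the closest combined sites were 644 bp apart. The FosB difference was 14.6 points within sc7202 quartiles against 37.7, the sc7202 difference between KCl and unstimulated 32.9 points with lists of the same length against 96.7, and the FosB shRNA difference -11.4 points for sites of both lists against -30.9. The AP-1 difference was 31.8 points over 7 libraries in place of 4 samples, with exact permutation p = 0.0156. That p-value counts libraries of 1 culture as independent, which they are not. The KCl H3K27ac difference moved to 41.5 points for sites with a c-Fos shRNA score of at least 100 (135 sites), 20.9 for sites of both lists, 25.04 within sc7202 quartiles, 23.8 with distal lists, 22.5 with the list of sample 6 and 29.4 with c-Fos shRNA lists of the same length. The share at increasing enhancers moved to 11.4% for sites of both lists, 7.27% with the list of sample 6 and 8.33% with lists of the same length. The settings with the list of 1 sample, those with lists of the same length and the FosB difference outside H3K27ac (45.5 points) were chosen after seeing the data.

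Without 1 biological sample the FosB difference ranged from 34.5 to 41.7 points, the AP-1 difference from 29.9 to 33.1 and the FosB rank difference from 27.6 to 29.8. The sc7202 difference was 29.5 or 12.4 points. With the replicate block, pairing libraries of a biological sample, the differences were unchanged at 59.98 points (FosB, KCl against unstimulated), 96.7 (sc7202, a description) and -30.9 (FosB shRNA against control shRNA). For both FosB results the exact sign-flip permutation p was 0.5, the smallest for 2 pairs. No design here can pass 0.05 over biological samples, so a p above it says nothing about stability. Depth is unknown for every list and limits what a missing peak can show.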

Other observations

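A small group of kept sites was weak with the other c-Fos antibody. In the lower 2 quartiles of the sc7202 percentile lay 39 kept sites, with a median percentile of 39.1. None of them was in all 4 KCl FosB lists, against 305 of the 569 in the strongest quartile (53.6%). Of the 1064 combined sites in all 4 FosB lists, 929 lay in the strongest quartile. Such sites were thus rare in the weaker quartiles, and their absence among these 39 is not read as a trait of kept sites. Of these 39 sites, 25 lay in a KCl H3K27ac peak (64.1%) and 19 in a non-distal one (48.7%), against 58.2% and 12.3% in the strongest quartile. This group was singled out after its values were seen.

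The kept sites with a c-Fos shRNA score of at least 100 numbered 135. Of these, 35 lay in non-distal KCl H3K27ac peaks (25.9%) and 21 in an unstimulated c-Fos list (15.6%), against 12.7% and 6.84% of the 526 with a lower score. All 4 KCl FosB lists held 77 of the 135 (57.0%) and 234 of the 526 (44.5%). A score of at least 100 was reached by 134 kept sites in the c-Fos shRNA list of sample 5 and by 6 in that of sample 6. The split uses scores of the lists that made the selection, and it rests mainly on sample 5. The differences between the 135 and the 526 sites are therefore descriptions and were not tested.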
